A study of Mus musculus with 3 samples.

Results

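Klf9 and Hr are classical target genes of thyroid hormone, and the sites around these 2 genes are described here for thyroid hormone receptor alpha (TRα), its paralog TRβ and the retinoid X receptor (RXR). Members were all peaks of 3 deposited lists that fell in chr19:23115000-23340000 (Klf9) or chr14:70850000-71075000 (Hr) on mm9, windows of 225 kb that hold each gene with about 100 kb on both sides. The rule used position and no measured value, though it was chosen with earlier results of these data known. It gave 22 of 24389 peaks, of which 8 were TRα, 6 TRβ and 8 RXR peaks. The Klf9 window held 9 of them and the Hr window 13.

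The libraries came from mouse C17.2 neural progenitor cells, an established line. The TRα library was made from C17.2a cells, which stably express TRα with a protein G tag, and the TRβ library from C17.2b cells, which stably express TRβ with the same tag. Tagged receptor was recovered on IgG beads (chromatin affinity purification), whereas RXR was immunoprecipitated from C17.2a cells with a pan-RXR antibody. No cells were treated with hormone or any other agent, and all spent 24 h without serum before fixation. Neither the labels nor the files say whether each line is 1 clone, and the peak lists hold no expression values against which the cell type or the receptor levels could be checked. There was 1 library per receptor, with 16033622 to 19786966 unique tags, so no value below has a replicate check and no test between receptors was possible. Receptor and cell line differed together between TRα and TRβ.

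Thyroid hormone receptors are nuclear receptors that sit on DNA mostly as heterodimers with RXR. They bind pairs of half-sites related to AGGTCA, often arranged as direct repeats, and they do so with or without hormone: without it they recruit corepressors, with it coactivators. Klf9 encodes a Krüppel-like zinc finger transcription factor that responds early to thyroid hormone in brain and neural cells. Hr encodes hairless, a corepressor that itself binds thyroid hormone receptors and is induced by the hormone in the developing brain.

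RefSeq gives the plus strand for Klf9, so the lower edge of the gene on chromosome 19 is its start. The 250 bases just before that start were taken from the RefSeq promoter table for GRCm38.p6. They are shown because the peaks with the most tags in the Klf9 window lie a few kb before the gene start on mm9. That mm9 start is approximate, as given below, and the distance from the peaks to the RefSeq start was not computed. AGGTCA would be in capitals.

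Klf9 promoter: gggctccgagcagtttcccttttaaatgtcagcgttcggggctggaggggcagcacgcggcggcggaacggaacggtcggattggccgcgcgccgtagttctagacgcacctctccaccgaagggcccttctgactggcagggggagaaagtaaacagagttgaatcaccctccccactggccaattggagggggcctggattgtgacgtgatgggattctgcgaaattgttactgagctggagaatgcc

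Of these bases 59.6% were G or C, against a median of 52.4% over 32851 RefSeq promoters of that length. Neither AGGTCA nor a direct repeat, meaning AGGTCA, any 4 bases and AGGTCA again, was found on either strand of it, and the repeat was not found with 1 mismatch allowed per half-site either. Over all 32851 promoters, 14.0% held AGGTCA, 0.0152% the exact repeat and 1.48% the repeat with these mismatches. The promoter table matched 1 of the 2 genes. A genome of the build of the peaks was not used here, so the bases under the peaks were not searched.

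Where the gene edges are needed, they were taken from the windows less 100 kb on each side, at about 23215000 and 23240000 for Klf9 and 70950000 and 70975000 for Hr. These edges are rounded and can be off by several kb. In RefSeq the next genes are 2410080I02Rik and Smc5 beside Klf9, and Reep4 and Nudt18 beside Hr, so a peak near an edge may belong to a neighbour.

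Peaks that shared at least 1 bp with a peak of another list were joined into 1 site, which gave 11 sites, K1 to K4 at Klf9 and H1 to H7 at Hr in order along the chromosome. All 3 lists met at K3, H3 and H5. TRα and RXR met without TRβ at K2, H4 and H6, and the other 5 sites had a peak in 1 list.

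The Klf9 window held 3 peaks of each list, and the Hr window 5 TRα, 3 TRβ and 5 RXR peaks. When the genome was cut into 11741 consecutive windows of the same length, 4.9% had at least 3 TRα, 6.23% at least 3 TRβ and 4.83% at least 3 RXR peaks. At least 5 TRα peaks were found in 0.724% of windows and at least 5 RXR peaks in 0.681%. At least 1 region of all 3 lists, as in the Klf9 window, was found in 9.45% of windows, and at least 2, as in the Hr window, in 1.44%. H3, 1 of these 2 in the Hr window, was joined through its TRα peak, since its TRβ and RXR peaks did not overlap. Both windows were therefore denser in peaks than most of the consecutive windows. Those were laid along the chromosomes without regard to genes, whereas the Klf9 and Hr windows are each centred on a gene. Stretches to which no tags can be mapped were not left out of the consecutive windows. At Klf9, 2 of the 3 TRα peaks and 2 of the 3 TRβ peaks belonged to 1 site, K3.

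**Figure D1:**
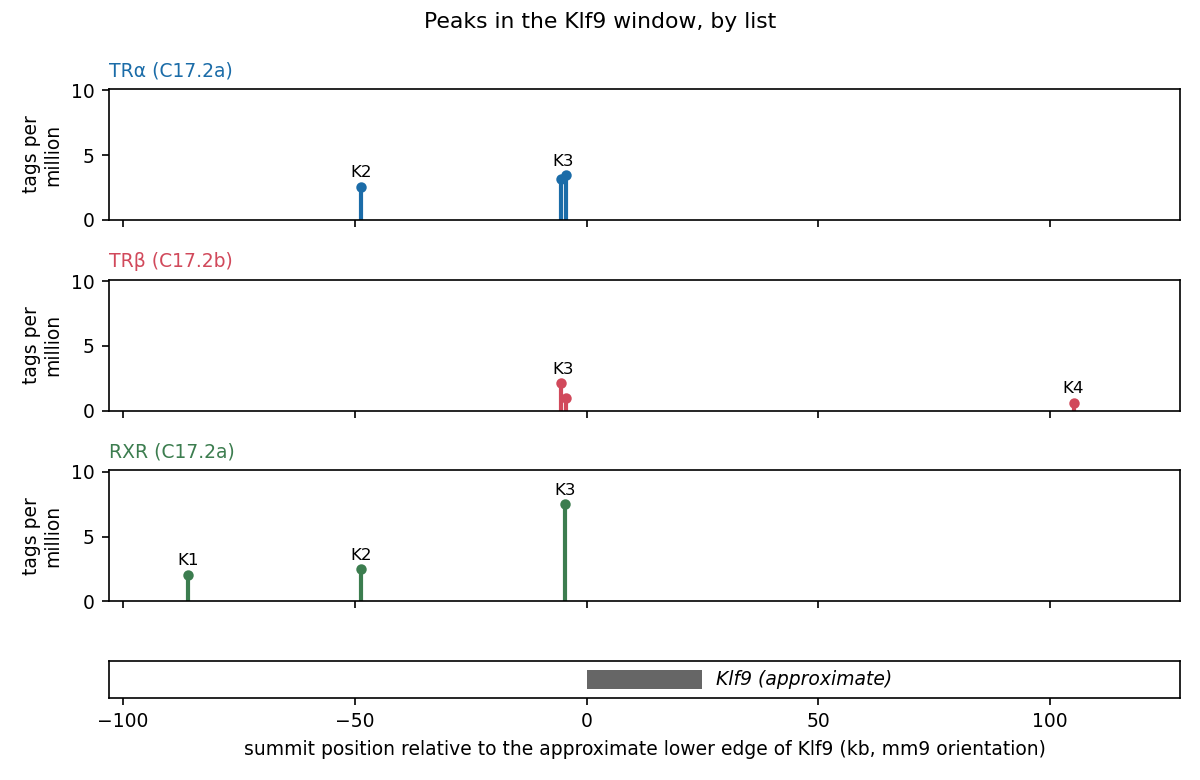
Peaks of the Klf9 window by list, with the summit position relative to the approximate lower edge of Klf9 (kb, horizontal) and the tags of the peak per 1000000 unique tags of its library (vertical, 1 stem per peak). The grey bar is the approximate gene; the tallest stems of all 3 lists stand at K3, just before the gene start.

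By tags, the largest signal at Klf9 was K3, though K2 stood above it for TRα and RXR by score and fold. K3 was a compound site at chr19:23208986-23211325, about 3.7 to 6.0 kb before the approximate gene start. Peaks of all 3 lists met there, as a pair of TRα peaks, a pair of TRβ peaks and a single wide RXR peak. Tags are the sequenced tags counted inside a peak. They are also given per 1000000 unique tags of the library (RPM), and the intervals after these values are exact Poisson intervals at 95% that cover counting error only.

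In the TRα library the lower peak of K3 (23209076-23209936) held 63 tags and the upper peak (23210037-23210916) 68, or 3.18 (2.45 to 4.07) and 3.44 (2.67 to 4.36) RPM. They ranked 379 and 311 of 7174 TRα peaks by tags. In the TRβ library the lower peak (23209204-23209652) held 35 tags and the upper peak (23210393-23210613) 16, or 2.11 (1.47 to 2.94) and 0.966 (0.552 to 1.57) RPM, and they ranked 316 and 1071 of 10021. The TRα pair was thus nearly even, and the lower TRβ peak held more tags than the upper. The TRβ peaks differed in width, at 449 and 221 bp, and per kb of peak they were close, at 4.71 and 4.37 RPM.

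The lower peak carried 48.1% of the TRα tags of the pair (exact binomial interval 39.3 to 57.0) and 68.6% of the TRβ tags (54.1 to 80.9), intervals that overlap and shares that take no account of peak width. TRβ and TRα summits lay 19 bp apart in the lower peak and 13 bp apart in the upper peak, and the 2 summits of a list were 1052 bp from each other for TRα and 1058 bp for TRβ. The RXR peak held 120 tags, or 7.48 RPM (6.21 to 8.95), and ranked 84 of 7194. It spanned 2340 bp and covered both TR peaks, and its width ranked 20 in the RXR list. Its only recorded summit lay 29 bp from the upper TRα summit and 1023 bp from the lower.

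Such pairs were uncommon among TRα peaks. Another TRα peak within a gap of 1 kb was found for 1.87% of TRα peaks, and another TRβ peak for 6.44% of TRβ peaks. The gap inside the K3 pair was 100 bp for TRα and 740 bp for TRβ.

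**Figure D2:**
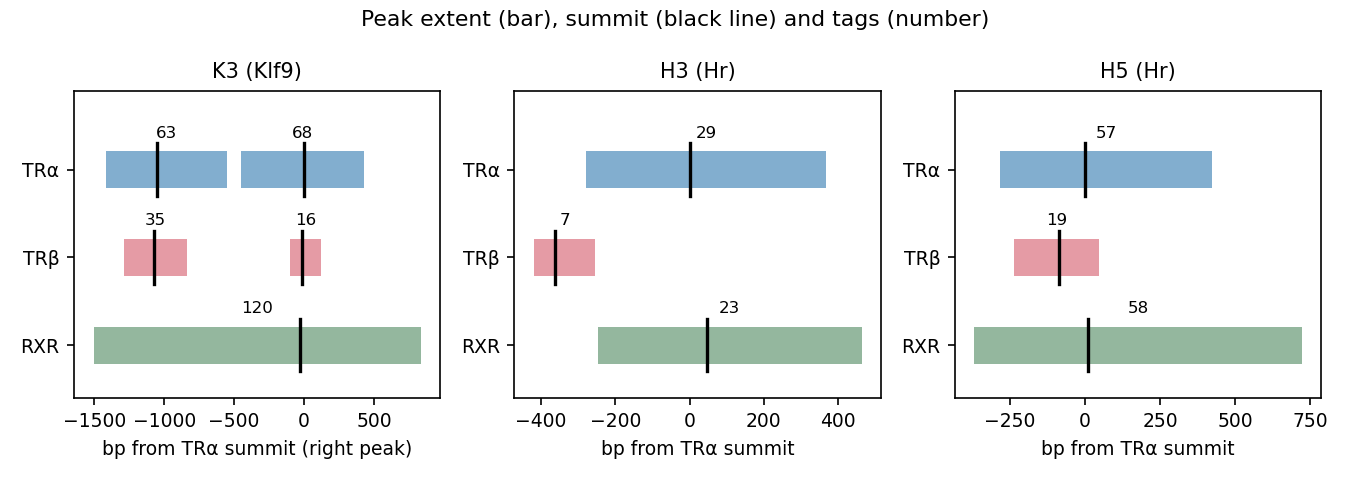
Extent (bars), summit (black lines) and tags (numbers) of each peak at the 3 sites where all lists met, in bp from the TRα summit (the upper one at K3). K3 shows 2 TRα and 2 TRβ peaks under 1 RXR peak, and at H3 the TRβ peak lies to the side of the RXR peak.

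K2, at chr19:23165824-23166883 and about 48 to 49 kb before the gene start, was a strong TRα and RXR site without a TRβ peak. It held 51 TRα tags, or 2.58 RPM (1.92 to 3.39), ranked 636 in the TRα list. RXR had 40 tags there, or 2.49 RPM (1.78 to 3.40), ranked 1182, with its summit 41 bp from that of TRα. Among TRα peaks of 40 to 60 tags that also had an RXR peak, 57.3% of 646 overlapped a TRβ peak. The lists give no tags outside peaks, and no TRβ peak had fewer than 6 tags, so weaker TRβ signal at K2 was not detectable here.

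The remaining Klf9 sites had a peak in 1 list. K1, at chr19:23128791-23129560, was an RXR peak of 33 tags (2.06 RPM, 1.42 to 2.89), ranked 1749. K4 was a TRβ peak of 10 tags (0.604 RPM, 0.290 to 1.11) at chr19:23319956-23320159, about 80 kb past the upper edge of the gene. It ranked 2473, a rank it shared with the other TRβ peaks among the 579 that held 10 tags.

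**Figure D3:**
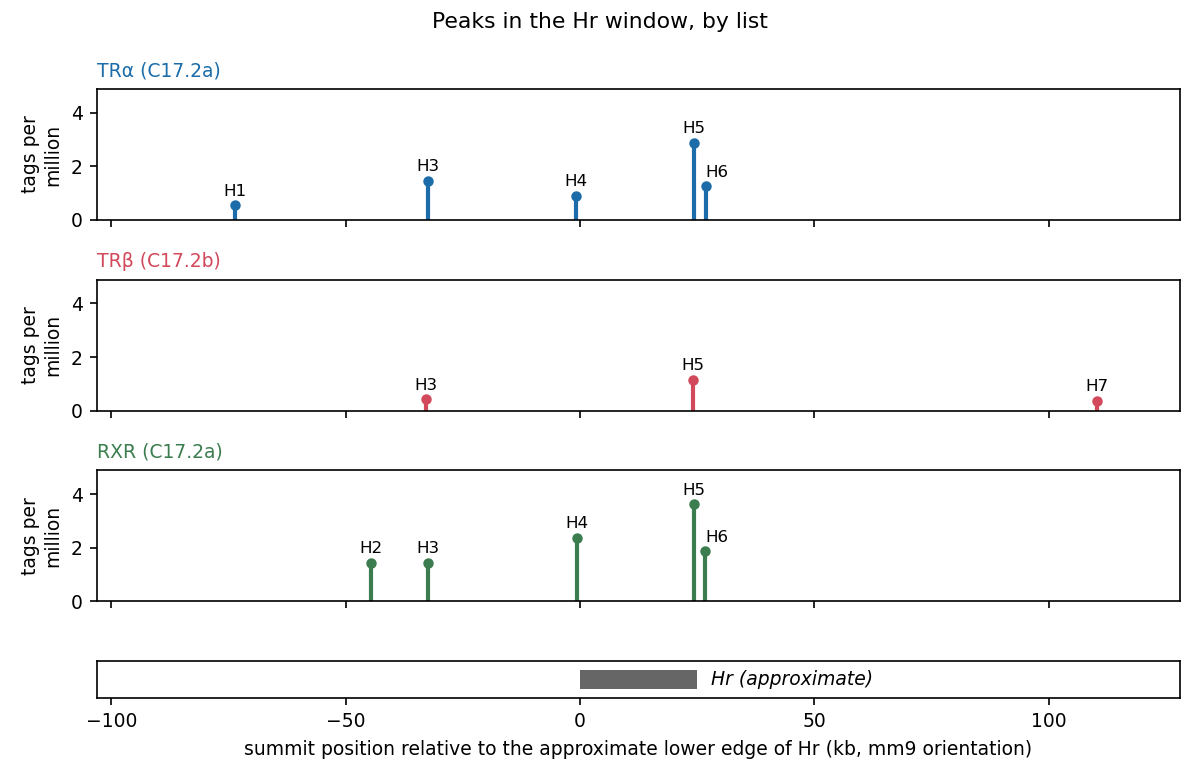
Peaks of the Hr window by list, drawn as for Klf9, with summits in kb from the approximate lower edge of Hr and tags per 1000000 unique tags. H4, H5 and H6 stand at the approximate edges of the gene, and the tallest stem of each list is at H5.

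By tags, the largest signal around Hr was H5, at chr14:70973928-70975019, at the approximate upper edge of the gene on the side of Nudt18. All 3 lists met there. TRα had 57 tags, or 2.88 RPM (2.18 to 3.73), ranked 483. TRβ had 19 tags, or 1.15 RPM (0.691 to 1.79), ranked 796. RXR had 58 tags, or 3.62 RPM (2.75 to 4.68), ranked 436. The TRα and RXR summits lay 9 bp apart and the TRβ summit 86 bp from that of TRα. Each list thus placed H5 within its top 8% by tags, with shares of 6.73% for TRα, 7.94% for TRβ and 6.06% for RXR.

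H6, at chr14:70976349-70977020, followed H5 after a gap of 1329 bp and about 1.3 to 2.0 kb past that edge. TRα had 25 tags there (1.26 RPM, 0.818 to 1.87) and RXR 30 (1.87 RPM, 1.26 to 2.67), ranked 2641 and 2105. The TRβ peak of H5 had no partner at H6.

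H4, at chr14:70949040-70949834, lay less than 1 kb below the approximate lower edge of Hr, so its side of that edge was not determined. TRα had 18 tags (0.910 RPM, 0.539 to 1.44), ranked 4252, and RXR had 38 (2.37 RPM, 1.68 to 3.25), ranked 1337. RXR signal was therefore well up in its list at H4, whereas the TRα peak was in the lower part of its own. For sites like H4 and H6, 27.1% of 1587 TRα peaks of 15 to 30 tags with an RXR peak overlapped a TRβ peak.

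H3, at chr14:70917099-70917981 and about 32 to 33 kb below the lower edge, was the weakest of the 3 sites where all lists met. TRα had 29 tags (1.47 RPM, 0.982 to 2.10), ranked 2025, and RXR 23 (1.43 RPM, 0.909 to 2.15), ranked 3325. TRβ had 7 tags (0.423 RPM, 0.170 to 0.871), ranked 5329 with ties. The TRβ peak overlapped the TRα peak by 25 bp and missed the RXR peak by 7 bp. Its summit lay 364 bp from the TRα summit, a distance over 300 bp that was found in 7.21% of 1886 overlapping TRα and TRβ pairs, against a median of 35 bp. At H3 the TRβ peak thus touched the edge of a TRα and RXR site and did not share its summit.

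The other Hr sites were a TRα peak of 11 tags at H1 (chr14:70876299-70876712, ranked 6597), an RXR peak of 23 tags at H2 (chr14:70904985-70905679, ranked 3325) and a TRβ peak at H7 (chr14:71060282-71060391, ranked 7313 with ties). The H7 peak held 6 tags, the lowest count in the TRβ list. H1 held 11, where the lowest count in the TRα list was 10.

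**Figure D4:**
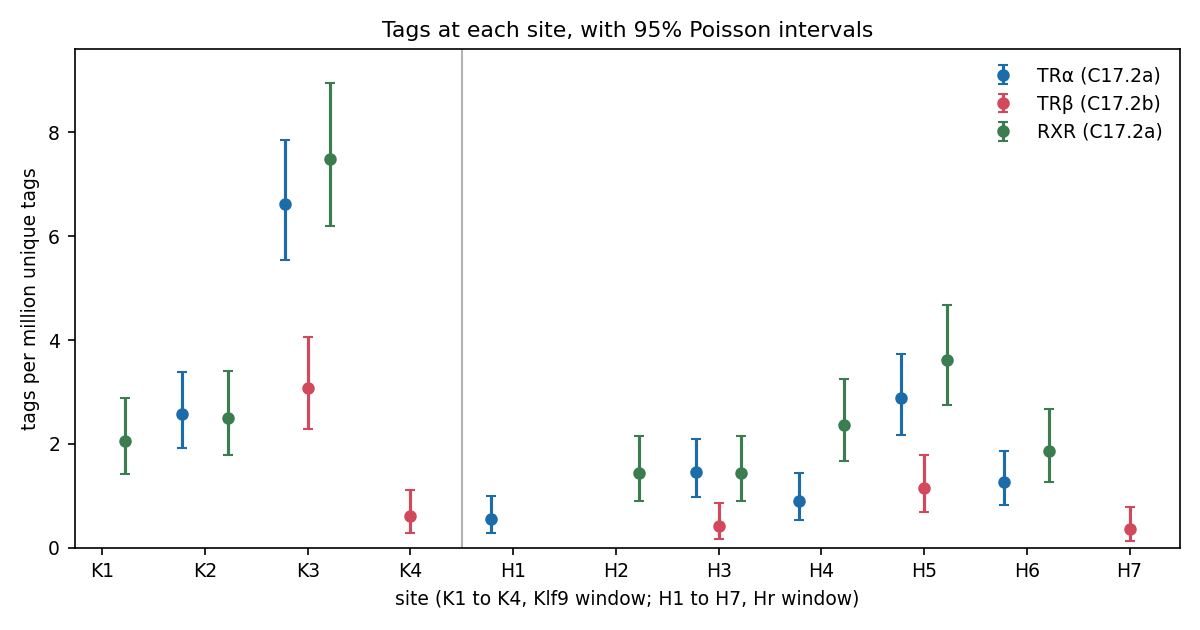
Tags per 1000000 unique tags (vertical) at each of the 11 sites (horizontal) for TRα, TRβ and RXR, with 95% Poisson intervals and pairs of peaks summed. K3 has the highest value of each list, H5 is the highest Hr site in each list, and TRβ lies below TRα at K3, H3 and H5, an order that turns at K3 and H3 per kb of peak.

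Of the 8 TRα peaks, 7 overlapped an RXR peak (47.6% over the whole TRα list) and 4 a TRβ peak (24.1%). Of the 6 TRβ peaks, 4 overlapped a TRα peak (18.8%) and 3 an RXR peak (17.9%). Of the 8 RXR peaks, 6 overlapped a TRα peak (47.2%) and 2 a TRβ peak (22.6%). The only TRα peak without RXR was H1. The shares of the TRα and TRβ members that met another list lay above those of the whole lists, and the RXR share with TRβ lay near that of its list. These whole-list shares take no account of tags. Among TRα peaks with an RXR peak, 57.3% of those with 40 to 60 tags overlapped a TRβ peak, and 27.1% of those with 15 to 30. The TRα peaks of K2, K3 and H5 held 51 to 68 tags, against a list median of 21. Both peaks of each K3 pair were counted, and the TRα and TRβ overlap at H3 was 25 bp. The members are few and neighbouring peaks are not independent, and no test was made. The cells used for RXR also carried the protein G tag on TRα, and whether the RXR antibody bound that tag was not tested.

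Summed over its peaks, K3 held 131 TRα, 51 TRβ and 120 RXR tags, or 6.62 (5.54 to 7.86), 3.08 (2.29 to 4.05) and 7.48 RPM. Among the 1394 regions with peaks of all 3 lists, 7.41% of 18812 merged regions, K3 ranked 67 by TRα, 105 by TRβ and 75 by RXR tags. H5 ranked 351, 464 and 340 in the same order, and H3 940, 1309 and 1129. Of the 3 sites, K3 was thus among the high regions of that class, H5 in its upper part and H3 in its lower part.

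Counted over whole peaks, depth-scaled TRβ tags were lower than TRα tags at all 3 sites, but not at K3 and H3 when counted per kb of peak. The depth-scaled ratio of TRβ to TRα was 0.465 at K3 (exact binomial interval 0.330 to 0.648), 0.398 at H5 (0.224 to 0.680) and 0.288 at H3 (0.107 to 0.673). Over 1719 merged regions with both receptors the median ratio was 0.543, with quartiles of 0.369 and 0.833, and this median lay inside all 3 intervals. TRβ peaks were narrower than TRα peaks, with median widths of 168 and 559 bp over the whole lists. Ratios per kb of peak divide by the called widths, and they were 1.21 at K3, 0.992 at H5 and 1.13 at H3. Per kb, the median over the 1719 regions was 1.37. Fewer of the TRβ tags were unique, 16556350 of 19842907, against 19786966 of 20259748 for TRα. Scaled by all tags, the ratios over whole peaks were 0.397 at K3, 0.340 at H5 and 0.246 at H3. Any further effect of this difference on the ratios or on the calling of TRβ peaks was not tested.

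At 5 of the 6 sites with TRα and RXR peaks, the interval of their depth-scaled ratio included 1. The ratio of RXR to TRα was 0.968 at K2 (0.623 to 1.49), 1.13 at K3 (0.875 to 1.46), 0.979 at H3 (0.541 to 1.75), 1.26 at H5 (0.856 to 1.84) and 1.48 at H6 (0.842 to 2.63), against a median of 1.28 and quartiles of 1.04 and 1.57 over 3395 merged regions with TRα and RXR. H4 stood apart with a ratio of 2.61 (1.45 to 4.85), above 98.5% of those regions, and the median of 1.28 lay outside its interval. It rests on 18 TRα and 38 RXR tags. Per kb of peak the H4 ratio was 1.83, above 98.9% of regions. The other sites also moved per kb, to 0.642 at K2, 0.841 at K3, 0.892 at H3, 0.811 at H5 and 1.18 at H6, against a median of 1.03. At K3 and H5 the ratio thus passed from above to below 1 and out of its interval, and K2 lay above only 4.27% of regions.

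**Figure D5:**
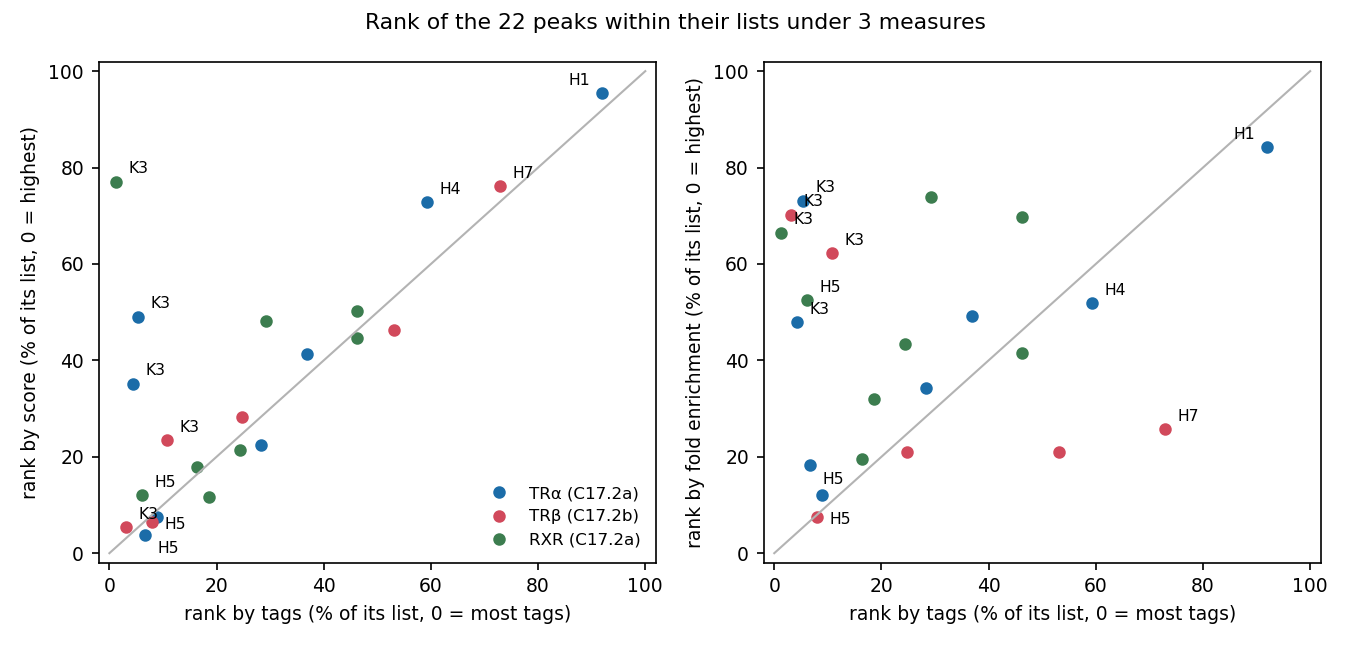
Rank of each of the 22 peaks within its list as a percent of the list, by tags (horizontal) against score (left) and fold enrichment (right), where 0 is the top of the list and the grey line marks equal ranks. All K3 peaks lie above the line in both panels, the RXR peak of K3 the farthest by score.

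The place of K3 in the lists depended on the measure. The authors also deposited a score, minus 10 times log10 of the p-value of the peak caller, and a fold enrichment. The RXR peak of K3 ranked 84 by tags but 5544 by score and 4781 by fold, with a score of 43.7, close to the lowest score in that list, 40.01, and a fold of 6.72. Among 111 RXR peaks with at least 100 tags, 6.31% had a score under 50.

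The TRα peaks of K3 ranked 379 and 311 by tags and 3522 and 2522 by score, with scores of 54.2 and 66.6. Of 452 TRα peaks with at least 60 tags, 9.73% had a score under 70. By fold they ranked 5244 and 3441. The lower TRβ peak of K3 ranked 316 by tags, 547 by score (118) and 7037 by fold (9.50), and the upper 1071, 2350 and 6232. Per kb of peak, the RXR peak of K3 ranked 836, the TRα peaks 532 and 444, and the TRβ peaks 978 and 1115. Per the file headers, the caller took its background from windows around each peak in the same library, without a control. The part of neighbouring tags in the low scores was not tested.

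H5 kept its place better by score, at rank 278 for TRα (score 191), 640 for TRβ (108) and 865 for RXR (103), though the RXR peak ranked 3774 by fold (7.40) and the TRα peak 1312. Per kb of peak H5 ranked 390 for TRα, 1307 for TRβ and 741 for RXR. By score and per kb, H5 thus stood above K3 for TRα and RXR, and the lower TRβ peak of K3 above that of H5. By fold, H5 stood above K3 in every list, with its TRβ peak at rank 744 (16.7), whereas K3 led by tags in every list. The RXR peak of H4 ranked 844 by score (103) and 2299 by fold (8.62), above that of H5. K2 ranked 536 by score for TRα (149) and 1286 for RXR (86.3), and 864 and 1405 by fold (11.6 and 9.73), above K3 in each case. Per kb of peak, K2 ranked 548 for TRα and 2144 for RXR, below K3 in both lists.

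Regions elsewhere with the most similar set of tags were sought among those of all 3 lists, by the Euclidean distance of log2 RPM. Closest to K3 was chr17:45888897-45890313 with 134 TRα, 48 TRβ and 121 RXR tags (distance 0.09), and closest to H5 was chr15:55101294-55102438 with 56, 19 and 55 tags (0.08). For H3 it was chr2:172124541-172125306 with 31, 7 and 22 tags (0.12). The genes at these regions were not analysed here.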

How the data were processed

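The tools named for the reads are CASAVA 1.7 and Bowtie 0.12.7, with the build mm9, per the submitters' processing notes. Peaks were called by the authors with MACS on each library without a control, at a p-value limit of 0.0001, per the file headers, so regions that gather tags in any library were not removed. The modelled fragment length d was 139 bp for TRα, 56 bp for TRβ and 174 bp for RXR. The sample descriptions give fragments of 250 to 350 bp, so d lay below this range in each list and farthest below it for TRβ. Tags are raw counts per peak as deposited. The score (log10 of the p-value, times minus 10) and the fold enrichment, a ratio, were deposited by the authors and used only within a list. Peak length and summit are other deposited values in bp.

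RXR starts were raised by 1, since lengths in that list showed starts counted from 0. Ranks run from the most tags, and ties share the best rank. Sites join peaks that share at least 1 bp. Counts were divided by unique tags (19786966, 16556350 and 16033622 for TRα, TRβ and RXR). All tags numbered 20259748, 19842907 and 16654006 in the same order. Poisson and Clopper-Pearson intervals (95%) cover counting error only, since PCR copies are not independent molecules. Every peak in the windows was named, and regions of similar tags were the nearest of all 3-list regions. The members and lists were chosen with earlier results of these data known. The ranges of tags, scores, gaps and summit distances used for comparison, and the shares of K3 tags, were chosen after the values were seen. Python 3.11.15, numpy 2.4.6, pandas 2.3.3, scipy 1.17.1 and matplotlib 3.10.9 were used. Overlap, merging and intervals were tested on simulated data. Other genes of the pathway were not analysed here, for want of an annotation of mm9.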

Additional observations from a re-analysis of the deposited data

How the results depend on the processing

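In total 164 alternative values were computed, of which 114 stayed within 1.5 times the count, or within the counting interval, 48 left it and 2 reversed. With peaks of a score of at least 100 only, the Klf9 window held 1 TRα, 1 TRβ and 0 RXR peaks and the Hr window 1, 1 and 2. Sites of 3, 2 and 1 lists then numbered 0, 0 and 2 at Klf9 and 1, 0 and 1 at Hr. With a reciprocal overlap of 50% they were 0, 2 and 5 at Klf9 and 0, 4 and 5 at Hr, a rule that separates peaks of unequal width such as the wide RXR peak of K3, and the short edge overlap at H3. Peak centres within 1 kb left all 6 site counts within 1.5 times. A window wider by 100 kb on both sides held 6 TRβ peaks at Klf9, and the other counts stayed within 1.5 times with wider or trimmed windows. Per kb of peak, the TRβ to TRα ratio was 1.21 at K3 and 1.13 at H3, both reversed, and 0.992 at H5, since TRβ peaks are narrower. The RXR to TRα ratio per kb was 0.841 at K3 and 0.811 at H5, outside their intervals, and inside them at the other 4 sites. Scaling by all tags left all 22 RPM values and all ratios inside their intervals. Ranks left the range set by counting error for 3 of 22 peaks by score, 8 by fold and 2 by tags per kb. The lowest tag counts of 10, 6 and 10 in the TRα, TRβ and RXR lists limit which weak sites could be seen. No paired analysis was possible because there was a single library per receptor.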
